A study of Mus musculus with 33 samples.

Results

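H3K27me3, the trimethyl mark on lysine 27 of histone H3, was compared between wild type (WT) mouse embryonic stem cells (mESC) and mESC that lack Uhrf1 (Uhrf1 KO). The compared items were all 8161 domains of the WT list and all 722 domains of the Uhrf1 KO list, 8883 of the 318036 regions that the study deposited in 25 lists from 33 samples. A WT domain was called shared where a KO domain overlapped it by at least 1 bp and WT-only otherwise, and KO domains were called shared or KO-only in the same way. Both groups were undifferentiated E14 mESC, grown in serum and leukemia inhibitory factor on gelatin or on feeder fibroblasts, and both libraries were made by chromatin immunoprecipitation and sequencing (ChIP-seq) with the same antibody. The KO group was 1 line, obtained with its WT counterpart from another laboratory. Uhrf1 itself was not mapped in KO cells, so the deletion could not be checked in these lists. Each group held 1 library. No difference could therefore be set against a spread between replicates, no p-value is given, and all intervals are 95% intervals for counting error only (the Wilson method for shares and the Newcombe method for differences).

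H3K27me3 is laid down by the polycomb repressive complex PRC2 and marks genes that are held silent. In mESC it lies over the promoters of developmental regulators, often together with H3K4me3, the mark of active promoters, and a promoter with both is called bivalent. Uhrf1 is a multidomain nuclear protein known for binding hemimethylated DNA and bringing the DNA methyltransferase Dnmt1 to replicating DNA. The comparison asks where the repressive mark remained when Uhrf1 was absent, which WT domains had no counterpart, and which genes lay in each class.

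Promoter classes are used below, and the promoters at the head of the developmental gene lists show what the classes look like in sequence. A promoter carried H3K27me3 where a domain reached to within 5 kb of the start of a protein-coding gene, and H3K4me3 where an H3K4me3 domain reached to within 2 kb. It was called kept where it had H3K27me3 in WT and KO, lost where it had the mark in WT alone, and KO-only in the reverse case. Each sequence below runs 5′ to 3′ along the gene, from 250 bases before to 50 bases after its start on the mm9 genome, with CG dinucleotides in capitals. They belong to the first kept genes (Hoxb1 and Hoxb13, homeobox factors of the anterior-posterior axis) by mean bin count of the KO domain, the first lost genes (Emx1, a forebrain homeobox factor, and Tbx15, a T-box factor of skeletal and skin development) by that of the WT domain, and the first KO-only gene (Fgf21, a metabolic hormone).
Hoxb1, kept, chr11:96226816-96227115, + strand: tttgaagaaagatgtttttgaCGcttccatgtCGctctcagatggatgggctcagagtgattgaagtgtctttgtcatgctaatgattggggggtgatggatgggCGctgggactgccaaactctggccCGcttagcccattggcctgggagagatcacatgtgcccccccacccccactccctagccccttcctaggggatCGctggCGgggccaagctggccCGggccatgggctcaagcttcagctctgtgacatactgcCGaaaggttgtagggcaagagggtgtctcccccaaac
Hoxb13, kept, chr11:96055380-96055679, + strand: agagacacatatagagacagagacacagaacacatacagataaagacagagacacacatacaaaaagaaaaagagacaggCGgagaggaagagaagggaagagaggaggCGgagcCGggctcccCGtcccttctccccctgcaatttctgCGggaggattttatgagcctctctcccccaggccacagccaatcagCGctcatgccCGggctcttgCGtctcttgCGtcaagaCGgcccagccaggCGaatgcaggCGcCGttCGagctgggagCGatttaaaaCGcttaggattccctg
Emx1, lost, chr6:85137182-85137481, + strand: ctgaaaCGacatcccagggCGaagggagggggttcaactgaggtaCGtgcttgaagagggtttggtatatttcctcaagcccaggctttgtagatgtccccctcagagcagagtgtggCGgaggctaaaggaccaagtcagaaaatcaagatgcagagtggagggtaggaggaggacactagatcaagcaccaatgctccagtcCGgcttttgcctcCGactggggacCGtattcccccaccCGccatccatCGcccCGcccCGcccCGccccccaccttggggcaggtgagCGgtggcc
Tbx15, lost, chr3:99044054-99044353, + strand: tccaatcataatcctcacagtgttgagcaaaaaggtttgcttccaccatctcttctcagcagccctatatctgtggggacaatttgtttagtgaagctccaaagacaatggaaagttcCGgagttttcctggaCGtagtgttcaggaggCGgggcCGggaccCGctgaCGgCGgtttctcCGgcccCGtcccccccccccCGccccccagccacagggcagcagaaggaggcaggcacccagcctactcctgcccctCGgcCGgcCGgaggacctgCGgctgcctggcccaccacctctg
Fgf21, KO-only, chr7:52870811-52871110, - strand: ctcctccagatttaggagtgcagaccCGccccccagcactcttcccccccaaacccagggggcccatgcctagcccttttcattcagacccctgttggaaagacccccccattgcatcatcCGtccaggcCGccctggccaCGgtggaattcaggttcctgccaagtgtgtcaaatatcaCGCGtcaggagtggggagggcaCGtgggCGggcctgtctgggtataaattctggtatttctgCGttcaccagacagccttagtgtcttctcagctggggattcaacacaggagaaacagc

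The kept promoters of Hoxb1 and Hoxb13 held 8 and 16 CG dinucleotides in 300 bases, the lost promoters of Emx1 and Tbx15 held 13 and 14, and the KO-only promoter of Fgf21 held 9. Of all 22367 protein-coding promoters, 59.1% held at least as many as Hoxb1 and 41.2% at least as many as Hoxb13, so the CG count of these windows did not separate the classes. Over whole classes the median was 11 in kept promoters, 7 in lost promoters, 14.5 in KO-only promoters and 11 in all promoters.

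H3K27me3 domains covered 960 Mb in WT, 36.4% of chromosomes 1 to 19 and X, and 84.1 Mb, or 3.19%, in KO. Of the WT domains, 674 of 8161 were shared (8.26%, interval 7.68 to 8.88) and 7487 were WT-only. Of the KO domains, 551 of 722 were shared (76.3%, 73.1 to 79.3) and 171 were KO-only (23.7%). The 61.2 Mb common to both lists made up 75.9% of the shared KO domains. Most of the WT list thus had no KO counterpart, while most of the KO list lay where WT had a domain. A list that covers so little can be short because fewer regions carried the mark or because fewer passed the caller's threshold, and these cannot be told apart here. By the study's list of libraries the KO library also had fewer mapped reads than the WT one, and the part of depth in the short list was not tested.

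Each domain came with a mean read count per bin, called mean bin count below, and the sources do not state whether it had been scaled to depth or set against input. The bin was 1800 bp in WT and 1500 bp in KO. The median mean bin count was 4.93 in WT, with a lowest value of 3.04, and 0.914 in KO, where 27 domains were listed at 0 and 69 of 722 (9.56%) lay under 0.1. The domain around Dlx5 and Dlx6 spanned 619 KO bins at a mean of 0.00189, and as a plain count this would amount to about 1.17 reads over the whole domain. The values were therefore used to rank or filter domains within their own list, and WT and KO values printed together have no known common scale. An alternative given below, which held KO domains to the lowest WT value, was the exception.

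Shared domains were high in the WT ranking. Their median rank was the 83.7th percentile of the WT list, against the 46.9th for WT-only domains. From the lowest to the highest quintile of WT mean bin count, the shared share was 1.04%, 2.63%, 4.96%, 9.25% and 23.4%, with an interval of 0.651 to 1.66 at the bottom and of 21.4 to 25.5 at the top. Length sorted the WT domains far less, at 11% shared in the shortest quintile and 6.99% in the longest, a difference of -4.04 points (-6.01 to -2.08). Shorter WT domains also ranked higher, with a median mean bin count of 7.10 in the shortest quintile and 4.27 in the longest. The part of ranking in the trend by length was not tested. This difference by length changed sign, to 41.4 points, when the WT list was shortened to its 722 domains of highest mean bin count. In the KO list the classes differed little by ranking. Shared and KO-only domains had median ranks at the 50.6th and 48.3rd percentile, and the upper minus the lower part of the list, divided at the median, differed by 1.94 points in shared share (-4.26 to 8.12). It differed by 8.31 points (1.30 to 15.2) when at least 50% of a domain had to be covered and by 23.0 points (16.3 to 29.4) with the shortened WT list.

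Length did separate the KO classes. Shared KO domains had a median length of 63 kb and KO-only domains of 16.5 kb. The shared share rose through the quintiles of KO length from 46.2% to 56.9%, 80.6%, 97.9% and 100%, the last being 145 of 145 domains of 157.5 kb or more. A longer domain has more bases in which an overlap of 1 bp can fall. With at least 50% of the domain covered, 63.7% of KO domains were shared.

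**Figure D1:**
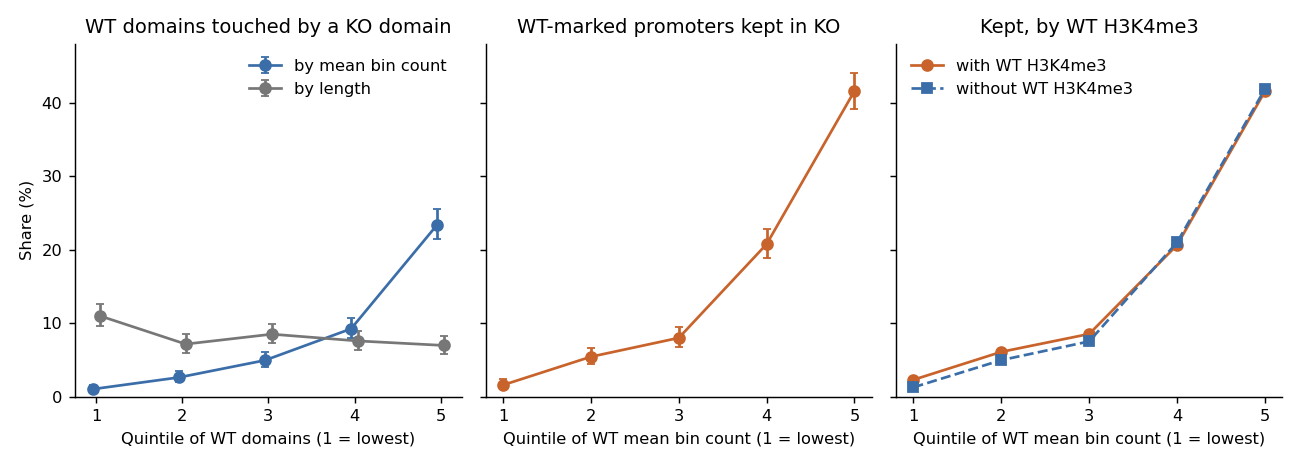
Shares in percent by quintile, with 95% intervals in the left and middle panels. Left, WT domains touched by a KO domain by quintile of WT mean bin count or of length. Middle, WT-marked promoters that kept H3K27me3 in KO by quintile of WT mean bin count. Right, the same for promoters with and without WT H3K4me3. The share climbed with mean bin count, to 23.4% of domains and 41.6% of promoters, changed little with length, and the lines with and without H3K4me3 lay within 1.12 points of each other.

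The sequence under the classes differed in base composition and gene content. Pooled over their bases, shared WT domains were 44.5% G and C with 10.5 CG dinucleotides per kb, and WT-only domains 40.4% with 7.21, against 41.8% and 8.34 for the genome. KO-only domains, at 45.9% and 11.3, were close to shared KO domains, at 45.4% and 11.2. Starts of protein-coding genes numbered 15.3 per Mb in shared WT domains, 6.17 in WT-only domains, 15.5 in shared KO domains and 19.4 in KO-only domains, and 8.47 genome-wide. A start lay inside 70.2% of shared WT domains (66.6 to 73.5) and 40.5% of WT-only domains (39.4 to 41.7). Of shared KO domains 74.4% held one, and of the shorter KO-only domains 28.1% (21.9 to 35.2).

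H3K4me3 moved with the classes as well. An H3K4me3 domain of WT mESC touched 82.2% of shared WT domains and 42.2% of WT-only domains, a difference of 39.9 points (36.7 to 42.9). It touched 88.2% of shared KO domains and 59.6% of KO-only domains. Shared KO domains were also the longer ones, and by base pairs the order was reversed. WT H3K4me3 domains covered 19.2% of the length of shared KO domains and 26.0% of that of KO-only domains. H3K9me3, the mark of constitutive heterochromatin, went the other way in the WT list, where the WT H3K9me3 domains touched 59.9% of shared and 71.2% of WT-only domains (-11.2 points, -15.1 to -7.43) and the KO ones 57.1% and 54.7% (2.44 points, -1.49 to 6.29). In the KO list WT H3K9me3 domains touched 66.8% of shared and 29.2% of KO-only domains (37.5 points, 29.3 to 44.9). By base pairs they covered 37.9% and 22.7%, so here the order stayed the same. Uhrf1-enriched windows of WT mESC touched 20.6% of shared and 35.9% of WT-only domains, a difference of -15.3 points (-18.4 to -11.9). Uhrf1 was thus mapped more often in the WT domains that had no KO counterpart, although these were also the lower ranked ones.

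Of 22367 protein-coding promoters, 7800 carried H3K27me3 in WT (34.9%) and 1694 in KO (7.57%). The mark was kept at 1208 WT-marked promoters (15.5%, 14.7 to 16.3) and lost at 6592 (84.5%). Among the 14567 promoters without the mark in WT, 486 had it in KO (3.34%), which is 12.2 points below the share among WT-marked promoters (11.3 to 13.0). The kept promoters lay in 443 KO domains and the WT-marked ones in 4010 WT domains, so neighbouring genes shared a call and the intervals over promoters are too narrow.

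Bivalent promoters kept H3K27me3 more often than those with H3K27me3 alone. Of 4100 bivalent promoters in WT, 838 kept it (20.4%), against 370 of 3700 repressive promoters, those without H3K4me3 (10%), a difference of 10.4 points (8.87 to 12). That difference was not seen between promoters of like WT ranking. In the quintiles of WT mean bin count the bivalent share minus the repressive share was 1.03, 1.12, 1.01, -0.37 and -0.31 points, and each interval held 0. Mean bin count itself separated them widely, with 1.60% kept in the lowest quintile, then 5.45%, 8.01% and 20.8%, and 41.6% in the highest.

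The CpG content of the promoter gave no single direction. CpG-rich promoters, with an observed to expected ratio of at least 0.6 and at least 50% G and C within 500 bp, kept the mark at 18% and CpG-poor promoters at 14.1% (3.90 points, 2.20 to 5.63). Among bivalent promoters alone the CpG-rich ones kept it less often, at 17.9% against 24.7% (-6.81 points, -9.46 to -4.20). Among repressive promoters they kept it more often, at 18.3% against 9.37% (8.88 points, 4.56 to 14.1). A promoter within 5 kb of a Uhrf1-enriched window kept the mark in 48 of 470 cases (10.2%), against 15.8% of the others (-5.61 points, -8.18 to -2.44).

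Most bivalent promoters still had H3K4me3 in KO, whether they lost or kept H3K27me3. Of the 3262 bivalent promoters that lost the repressive mark, 2481 (76.1%) were active in KO, with H3K4me3 alone, and 781 had neither mark. Of the 838 that kept it, 600 (71.6%) stayed bivalent and 238 had H3K27me3 alone. Over all 4100 bivalent promoters the share with H3K4me3 in KO was 75.1%. Of the 3330 repressive promoters that lost it, 3224 had neither mark and 106 had gained H3K4me3. A lost promoter can by definition only be active or without a mark in KO, so these counts show where H3K4me3 was called. Of promoters active in WT, 9021 stayed active and 329 became bivalent, while 636 had neither mark and 44 had H3K27me3 alone.

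The Hox genes, homeobox factors that set position along the body axis, kept H3K27me3 at all 40 of their annotated promoters, where the share over all WT-marked promoters was 15.5%. The annotation holds Hoxa3 in duplicate, so the Hox counts are of annotated entries. These 40 promoters lay in 4 WT and 4 KO domains, so they amount to 4 kept regions. The Hoxb domain on chromosome 11 was 666 kb long in WT with a mean bin count of 20.7 (99.6th percentile of its list), and 669 kb in KO with 9.39 (98.5th percentile), and 99.2% of the KO domain lay in the WT one. The Hoxc domain on chromosome 15 was 459 kb at 20.5 in WT and 504 kb at 8.08 in KO. The Hoxa domain on chromosome 6 was 518 kb at 14.02 in WT and 948 kb at 1.48 in KO, and the Hoxd domain on chromosome 2 was 866 kb at 9.53 in WT and 1025 kb at 1.61 in KO. Hoxb and Hoxc ranked near the top of either list, whereas Hoxa and Hoxd stood at the 98.7th and 94.2nd percentile in WT and at the 66.8th and 69.5th in KO.

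H3K4me3 was called at fewer Hox promoters in KO, at 31 of the 40 in WT and at 19 in KO. Over all promoters it was called at 63.2% in WT and 57.0% in KO. In the Hoxa cluster the count went from 9 to 5 of 12 promoters, in Hoxb from 10 to 8 of 10, in Hoxc from 9 to 5 of 9 and in Hoxd from 3 to 1 of 9. Of the 31 promoters that were bivalent in WT, 18 stayed so (58.1%), and of all 4100 bivalent promoters 75.1% still had H3K4me3 in KO.

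**Figure D2:**
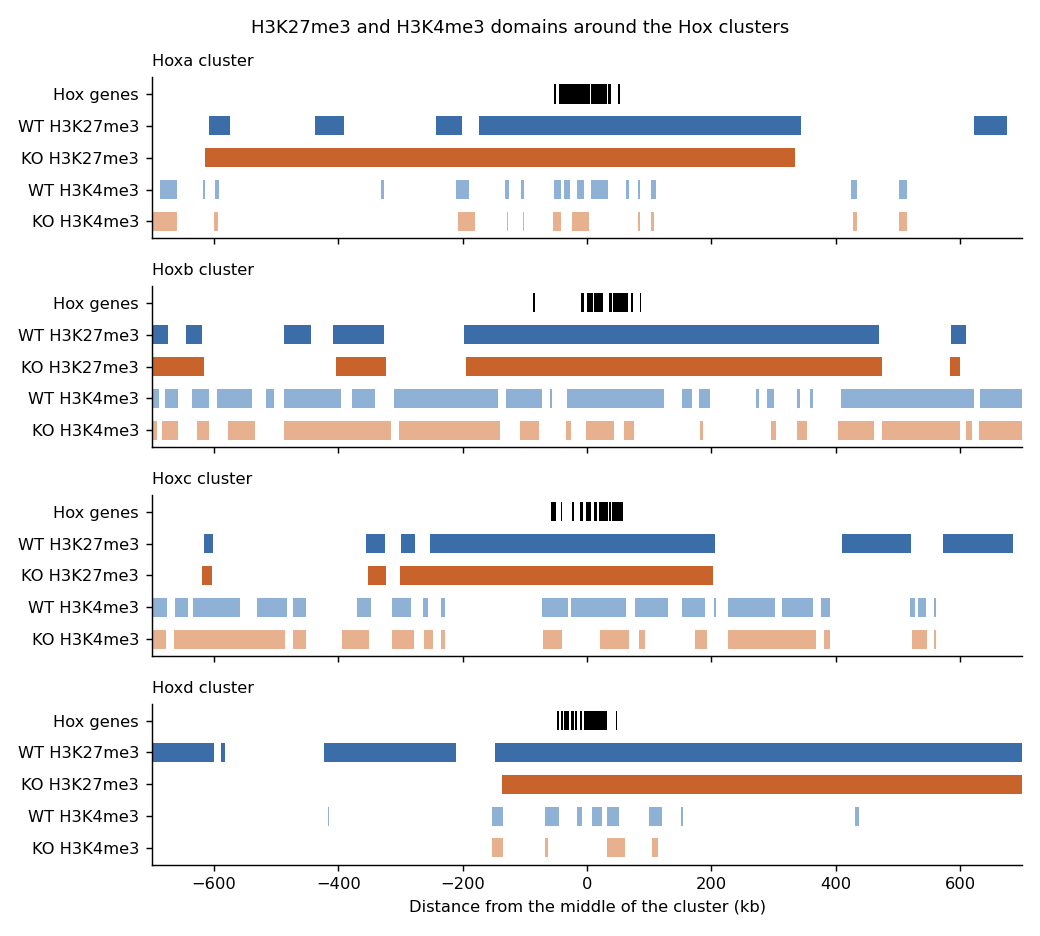
H3K27me3 and H3K4me3 domains of WT and Uhrf1 KO mESC within 700 kb of the middle of each Hox cluster, drawn by distance in kb, with the Hox genes in black. A single H3K27me3 domain spanned each cluster in WT and in KO, the KO Hoxa domain reaching farther (948 kb against 518 kb), and H3K4me3 was called at fewer Hox promoters in KO (19 against 31).

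The clustered protocadherins, cell adhesion proteins that give neurons their surface identity, kept the mark at 24 of 24 promoters. All lay in 1 WT domain of 956 kb with a mean bin count of 13.2, which reappeared in KO as 2 domains of 440 and 576 kb, at 3.30 and 0.915. H3K4me3 was called at 15 of the 24 in WT and at 4 in KO, where the shares over all promoters were 63.2% and 57.0%.

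Other lists of developmental genes kept the mark in part, each at a share above the 15.5% of all WT-marked promoters. Their median WT ranks, at the 76.4th to 89.3rd percentile, were also above the 57.7th of all. In the highest quintile of WT mean bin count 41.6% of all promoters were kept. There neuroectoderm factors kept 15 of 26, mesoderm and cardiac factors 9 of 20 (45%), endoderm factors 8 of 14 and ligands 13 of 17. Over all ranks, neuroectoderm factors kept the mark at 15 of 46 promoters (32.6%), and at 13 of 43 (30.2%) without chromosome 11. Neurod2, a neuronal basic helix-loop-helix factor on chromosome 11, lay in a WT domain of 101 kb at 13.7 and a KO domain of 99 kb at 4.51. Pax2, Lhx2, Lhx5, En2 and Neurog2, factors of the developing brain, were kept in KO domains of 198 to 528 kb. Emx1, at 12.9 in WT, and the adjacent forebrain genes Dlx1 and Dlx2, at 11.9, had no KO domain although they ranked at the 98.2nd and 97.5th percentile of the WT list. Ranking high in WT thus did not guarantee a KO call for a given gene.

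Mesoderm and cardiac factors kept H3K27me3 at 12 of 39 promoters (30.8%). Without chromosome 11, on which all 3 marked members were kept, the list kept 9 of 36 (25%). Hand1, a heart and trophoblast factor on chromosome 11, lay in a WT domain of 39.6 kb at 12.5 and a KO domain of 30 kb at 4.15. Nkx2-5, which specifies cardiac cells, stood at 13.96 in WT and 2.89 in KO. Tbx15, at 12 in WT, and Hand2, at 10.1 in a WT domain of 898 kb, were lost. Related factors of this list thus fell on either side.

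Endoderm factors kept it at 10 of 22 promoters (45.5%), and at 9 of 21 (42.9%) without chromosome 11. Nkx2-3, a factor of gut and spleen, stood at 12.7 in WT and 3.96 in KO. Cdx2, the intestinal and trophectoderm factor, and its neighbour Pdx1, the pancreatic factor, shared a domain of 189 kb at 11.7 in WT and of 306 kb at 2.23 in KO. Sox17, Gsc and Gata6, at 10.3, 9.55 and 9.49 in WT, lost H3K27me3 and carried H3K4me3 alone in KO.

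Ligands of the Wnt, Fgf, Bmp and Hedgehog families kept it at 16 of 43 promoters (37.2%), and 3 further ligands were KO-only. Ihh, Wnt6 and Wnt10a shared a domain of 400 kb at 9.12 in WT and of 383 kb at 2.20 in KO. Dhh and Shh, the other Hedgehog ligands, were lost from WT domains of 10.8 and 88.2 kb. Without chromosome 11, on which all 6 marked ligands were kept, the list kept 10 of 37 promoters (27%).

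Over these 5 developmental lists, 92 of 188 WT-marked promoters were kept (48.9%), against 1116 of 7612 for all other genes (14.7%). Without the Hox genes the developmental lists kept 52 of 148 (35.1%), and without chromosome 11 they kept 70 of 165 (42.4%) where all genes kept 13.1%. In the highest quintile of WT mean bin count, where 41.6% of all promoters were kept, the developmental lists without Hox kept 44 of 75 (58.7%). Counted by domain, 44 of 133 WT domains with a start of these genes were shared (33.1%, 25.7 to 41.5), against 7.85% of those without (7.28 to 8.46). In the highest quintile the shares were 52.1% of 73 domains (40.8 to 63.1) and 22.1% of 1559 (20.1 to 24.2).

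The H3K4me3 of these genes also differed from that of other bivalent genes. Of 148 developmental promoters that were bivalent in WT, 56.8% had H3K4me3 in KO, against 75.8% of 3952 others, a difference of -19.1 points (-27.2 to -11.2). The difference was -18.9 points (-30.5 to -8.16) among promoters that lost H3K27me3 and -17.1 points (-28.8 to -5.98) among those that kept it. Loss of H3K4me3 at developmental promoters was thus seen whether or not the repressive mark stayed.

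**Figure D3:**
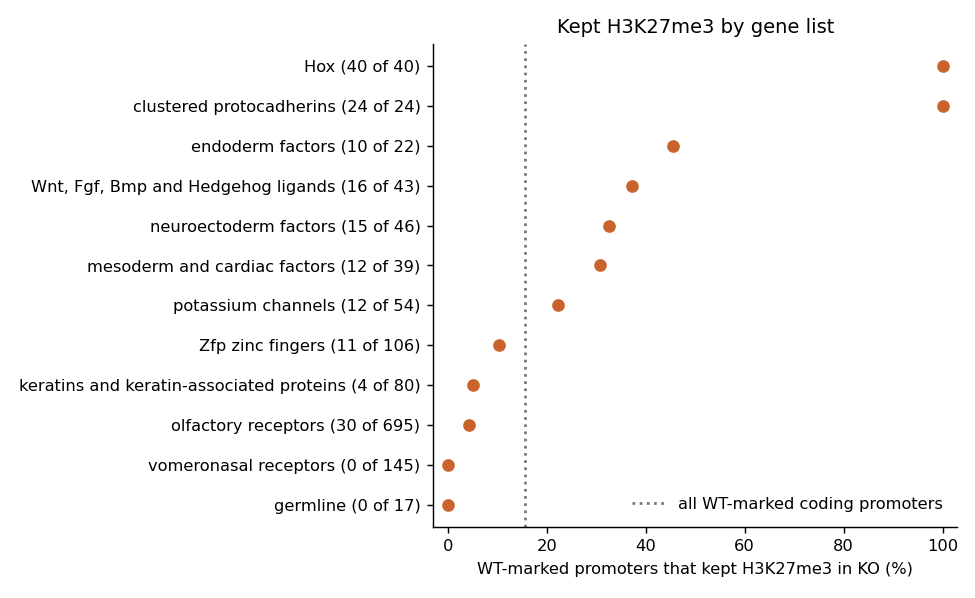
Share of WT-marked promoters that kept H3K27me3 in Uhrf1 KO mESC, in percent, for each gene list with at least 10 WT-marked promoters, with the counts beside the names. The dotted line is the 15.5% of all WT-marked coding promoters. Hox and protocadherin genes stood at 100%, the other developmental lists at 30.8% to 45.5%, and the lists of receptors, keratins and germline genes at 0% to 5%.

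Receptor, keratin and germline genes were near the other end. Olfactory receptors kept the mark at 30 of 695 promoters (4.32%), and 14 of the 30 were on chromosome 11. Vomeronasal receptors kept it at 0 of 145 and germline genes, such as the RNA helicase Ddx4 and the meiotic protein Sycp2, at 0 of 17. Keratins and keratin-associated proteins kept it at 4 of 80, all 4 in the Krtap5 cluster of chromosome 7, and at 0 of the 40 on chromosome 11. Zinc finger genes named Zfp kept it at 11 of 106 (10.4%), below the 15.5% of all WT-marked promoters. Potassium channel genes, at 12 of 54 (22.2%), were above that share. The highest quintile of WT mean bin count held 30 of the 695 olfactory receptors, 1 of the vomeronasal receptors, none of the 80 keratin or 17 germline promoters, 24 of the 106 Zfp genes and 12 of the 54 potassium channel genes.

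The longest KO domains often held developmental regulators. Of the 20 longest, 11 held a start of a gene of the 5 lists, with 43 starts in all, while 2 of the 20 longest WT domains did. Of all 551 shared KO domains 7.62% held such a start, and of the 171 KO-only domains 0.585%. In the WT list 6.53% of shared and 1.19% of WT-only domains did. A longer domain has room for more starts, and the part of length was not tested. A domain of 1547 kb on chromosome 19 held Vax1 and Emx2, homeobox factors of the eye and forebrain, at a mean bin count of 0.0620. One of 1464 kb on chromosome 2 held Nkx2-2, Nkx2-4, Pax1 and Foxa2, and one of 1362 kb on chromosome 12 held Nkx2-1, Nkx2-9 and Pax9. Tbx3 and Tbx5, T-box factors of limb and heart, shared 1349 kb on chromosome 5. Six2 and Six3 lay in 951 kb on chromosome 17, Dlx5 and Dlx6 in 929 kb on chromosome 6, and Pax3 in 920 kb on chromosome 1. The single longest, 1638 kb on chromosome 11, held Accn1 and a group of Ccl chemokine genes instead. The domains of Vax1 with Emx2 and of Dlx5 with Dlx6 had mean bin counts below 0.1. Without the 69 KO domains under 0.1, 88 of the 92 developmental promoters were still kept.

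The shared KO domains of highest mean bin count were short, the first 3 being 1.5 to 22.5 kb long. The highest with named genes held H2-Q6 and H2-Q7, major histocompatibility genes, at 15.3 over 22.5 kb in KO and 14.8 over 130 kb in WT. The next such domain held Hes7, a factor of the somite clock, and Aloxe3, a skin lipoxygenase, at 14.4 over 10.5 kb in KO and 23.2 over 12.6 kb in WT. The H2-Q genes are near-identical copies, and with 1 alignment kept per read the reads of such copies may be split between them.

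Of the WT domains without a KO counterpart, whose longest spanned 3854 kb, the third, the fourth and the fifth by length held 2 to 4 protein-coding starts each. A domain of 2803 kb on chromosome 11, at a mean bin count of 6.33, held Kif2b and Car10. One of 2551 kb on the same chromosome, at 6.89, held Sox9, the regulator of cartilage and testis development, with the potassium channel genes Kcnj2 and Kcnj16. One of 2482 kb on chromosome 4, at 5.74, held Pappa and Astn2. They ranked at the 76.1st, 81.6th and 68.1st percentile of the WT list, above its median, and no base of them was in a KO domain.

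The KO-only class was small, and few of its domains flanked a WT domain. The median distance to the nearest WT domain was 129 kb, and 10 of 171 lay within 20 kb. Of the 171, 1 lay on the mitochondrial genome, where there was no WT domain to measure to, and 22 were under 3 kb long. The longest, 144 kb at a mean bin count of 0.189, held Atg7, an autophagy enzyme, and the next, 143 kb at 1.41, held Gad2, which makes the neurotransmitter GABA. KO-only promoters are a wider class than KO-only domains, which held 66 protein-coding starts. A promoter without a WT call within 5 kb can also lie in a shared KO domain that reached beyond the WT one. Of the 486 KO-only promoters, 373 had H3K4me3 in WT (76.7%) and 340 in KO (70.0%), against 68.6% and 65.3% of the promoters unmarked in either list. Fgf4, a growth factor of mESC, and its neighbour Fgf15 had no H3K27me3 call in WT and lay in a KO domain of 366 kb at 0.00420, near the bottom of the KO list. That domain was longer than any KO-only domain (144 kb at most), so it was a shared one. Fgf21 lay in a KO domain of 28.5 kb at 0.328. The promoters of these 3 ligands were active in WT and bivalent in KO.

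KO domains were unevenly spread over the chromosomes. Chromosome 11 held 155 of the 722 KO domains (21.5%) on 4.62% of the genome, and 12.2% of it was covered, against 0.925% to 6.69% of the other autosomes. Of the WT domains on chromosome 11, 35.4% were shared (31.0 to 40.2), against 3.16% to 13.2% on other autosomes. Its WT-marked promoters kept H3K27me3 in 286 of 755 cases (37.9%), where other chromosomes kept 13.1%, a difference of 24.8 points (21.3 to 28.4). In WT the chromosome was 56.2% covered, second to chromosome 8 at 64.1%, and chromosome 8 was 2.06% covered in KO. The X chromosome had 182 WT domains, none of them shared, and 7 KO domains.

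Other marks also covered more of chromosome 11 than the median autosome. H3K9me3 covered 96.3% of it in KO, in 18 domains, and 76.2% in WT, against a median of 43.6% and 35.9% on the other autosomes, and chromosome 8 was higher still in WT at 81.0%. H3K4me3 covered 23.4% of it in WT and 18.4% in KO, where the genome as a whole stood at 8.19% and 7.14%. In the lists of embryoid bodies (EBs), aggregates in which mESC differentiate, H3K27me3 covered 29.9% of chromosome 11 in KO at week 1, against 3.53% to 9.93% of the other autosomes. In WT EBs at week 2 it covered 38.2%, below the median of 45.7% on the other autosomes. The part of these breadths in the kept calls was not tested. Without chromosome 11 the kept share of all WT-marked promoters was 13.1%, Hox kept 30 of 30, and protocadherins 24 of 24.

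**Figure D4:**
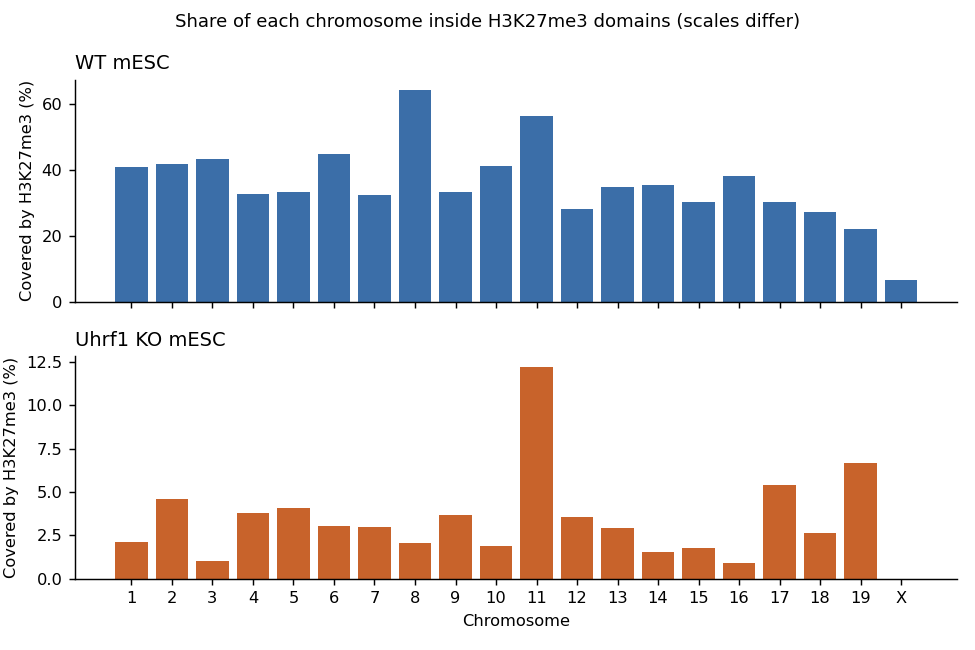
Share of each chromosome inside H3K27me3 domains, in percent, for WT mESC (top) and Uhrf1 KO mESC (bottom). The vertical scales differ. Chromosome 11 stood highest in KO at 12.2%, chromosome 8 was highest in WT at 64.1% and stood at 2.06% in KO, and X was at 6.81% and 0.0126%.

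The polycomb and pluripotency genes were read as a check on the cells. Among polycomb genes, Cbx2 and Cbx8, chromodomain subunits of PRC1, kept H3K27me3 in 1 domain on chromosome 11, of 302 kb at 9.71 in WT and 668 kb at 0.150 in KO. Bmi1, Phf19 and Rbbp7 lost it, and Pcgf6 was KO-only, at 3.44 over 9 kb. Of 8 mESC markers, Nanog, Zfp42, Dppa4 and Tdgf1 were active in WT and KO. Pou5f1, Klf4 and Sox2, the core factors of pluripotency, were called bivalent in WT, in domains of 7.2, 36 and 19.8 kb at 18.7, 10.9 and 9.27, and active in KO. The eighth, Esrrb, had H3K27me3 without H3K4me3 in WT, in a domain of 122 kb at 5.13, and neither mark in KO. Pou5f1 stood at the 99.5th percentile of the WT list. Of 16 housekeeping genes, B2m alone was marked in WT, at 8.40, and it lost the mark. H3K27me3 marks genes held silent, so WT calls at such genes bear on how specific the WT list is, which was not tested. Of 7 markers of feeder fibroblasts, 6 were marked in WT and 1 of these, the collagen gene Col1a1, kept the mark, and 4 had H3K4me3 in WT and 4 in KO.

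The EB lists of the same genotype gave a separate view of the mark. Of the kept promoters, 88.7% had H3K27me3 in at least 1 of the 3 KO EB lists (86.7 to 90.3). Of the lost promoters, 60.4% did (59.2 to 61.6), against 15.7% of promoters unmarked in mESC (15.1 to 16.3). Lost promoters were marked in KO EBs at 34.0% in week 1, 45.2% in week 2 and 41.9% in week 3. A promoter without the mark in KO mESC thus often had it in KO EBs, whose lists covered 6.82% to 17.7% of the genome. Of the 96 lost promoters of the developmental lists, 87 were marked in a KO EB list (90.6%), among them Emx1 and Tbx15 at all 3 weeks. All 40 Hox promoters were marked at each week. Pou5f1 was marked at none.

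KO-only calls recurred less often. Of the KO-only promoters, 49.2% were marked in a KO EB list (44.8 to 53.6). Of the domains, 88.4% of shared KO domains overlapped a KO EB domain and 45.6% of KO-only domains did, a difference of 42.8 points (34.7 to 50.4) that held in each of the 3 weeks, at 42.5, 53.3 and 56.1 points. Shared KO domains were also the longer ones, which favours an overlap. By base pairs the 3 KO EB lists covered 48.6%, 71.4% and 61.9% of shared KO domains. They covered 29.9%, 22.4% and 9.99% of KO-only domains. In the WT list, 92.1% of shared and 87.8% of WT-only domains overlapped a WT EB domain (4.36 points, 1.97 to 6.31). This difference was 46.2 points with the week 1 list alone, -2.72 points with week 2 and 12.3 points with week 3. WT EB lists covered 3.84%, 44.1% and 30.0% of the genome at these weeks.

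**Figure D5:**
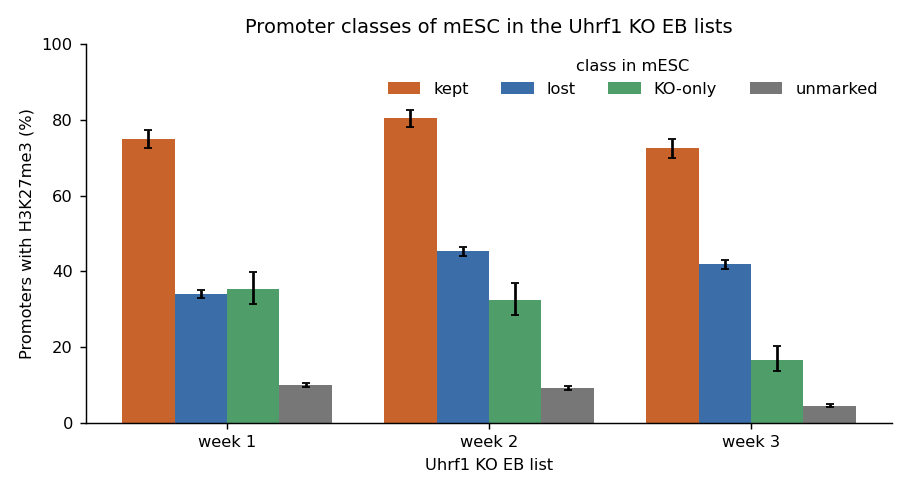
Share of promoters with H3K27me3 in the Uhrf1 KO EB lists of weeks 1, 2 and 3, in percent with 95% intervals, for promoters classed in mESC as kept, lost, KO-only or unmarked. Kept promoters stood at 72.4% to 80.4%, lost promoters at 34.0% to 45.2%, KO-only promoters at 16.7% to 35.4% and unmarked promoters at 4.54% to 10%.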

How the data were processed

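The authors mapped reads to mm9 with Bowtie2 2.1.0, keeping 1 alignment per read, and called histone domains with RSEG against input, 1 list per library. For each domain the deposited signal is the average number of reads per bin. A deposited score, which is larger for longer domains, was not analysed here. Read totals, inputs and factor summits were not used here, so depth is unknown from these files. The study's library list gives fewer mapped reads for the KO H3K27me3 library than for the WT one. EB lists were used for overlap alone.

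Coordinates matched the NCBIM37 assembly (0 of 41 pairs of list and chromosome ran past a chromosome end by more than a bin), and genes were taken from its GENCODE annotation, with 1 start per gene. Overlaps were computed in Python 3.11 with numpy 2.4.6 and pandas 2.3.3, sequences read with pysam 0.24.0 and plots drawn with matplotlib 3.10.9. The overlap and interval functions were tested on simulated data.

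The members, gene lists and named-gene rule were chosen with earlier results of these data known. Named per list were up to 6 kept and 4 lost genes by mean bin count and the KO-only genes, and per class the 3 longest domains and the 3 of highest mean bin count, leaving out the 2 longest WT-only domains. The 12 longest KO domains were also listed. The developmental lists hold 206 genes together, and Gata4 and some others stand in several lists. Chromosome 11 and KO domains under 0.1 were left out as alternatives added after the data were seen. The other alternatives were a minimum overlap of 50%, base pairs, domains above the median mean bin count, a shortened WT list, KO domains that reached the lowest WT value, promoter windows of 1 kb or the start itself, autosomes, stricter CpG classes, H3K4me3 within 5 kb and single EB weeks.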

Additional observations from a re-analysis of the deposited data

How the results depend on the processing

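No paired analysis was possible because each genotype had 1 library and the labels give no replicate numbers. Of 84 comparison values recomputed under 16 alternatives, 42 stayed inside the interval of the reported value, 37 moved outside it and 5 whose reported interval excluded 0 changed sign. Of the 42, the difference by KO ranking, whose interval holds 0, also changed sign, from 1.94 to -2.38 points without chromosome 11 and to -1.46 points without KO domains under 0.1. The causes were not tested unless stated.

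Above the median mean bin count of each list, the shared share of WT domains was 7.06%, the difference by WT length reversed to 2.45 points, that by KO ranking was 8.46 points, the kept share was 12.8%, the bivalent minus repressive difference 6.48 points, the CpG difference 0.564 points and the WT EB difference 8.95 points. With at least 50% of a domain covered, 63.7% of KO domains were shared, the KO ranking difference was 8.31 points and the KO EB difference 28.8 points. By base pairs the shares were 6.38% of WT and 72.8% of KO.

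With the WT list shortened to 722 domains, 31.7% of WT and 31.7% of KO domains were shared, the length difference reversed to 41.4 points, the KO ranking difference was 23.0 points and 50.5% of marked promoters were kept, 44.7 points above unmarked ones. The bivalent and CpG differences then reversed to -7.87 points (-16.5 to 1.14) and -18.6 points (-25.0 to -12.0), and the EB differences were 19.7 points in KO and 14.9 in WT. By construction this alternative holds only the highest ranked WT domains.

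With the 84 KO domains whose mean bin count reached the lowest WT value, 0.784% of WT domains were shared, the length difference was -1.35 points, the KO ranking difference 9.52, the kept share 1.79%, its excess over unmarked promoters 1.62 points, the bivalent difference 2.54 and the CpG difference 0.322. Of the Hox promoters 19 of 40 were then kept, and of the protocadherins 14 of 24. This cut applied a WT value to the KO list, although a common scale is not known. The stricter CpG class gave 0.779 points.

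Without chromosome 11 the shared share of WT domains was 6.81%, the kept share 13.1%, its excess 10 points and the bivalent difference 7.65 points. Without KO domains under 0.1 the first 3 of these were 7.33%, 14.1% and 11.2 points. EB weeks 2 and 3 alone gave 53.3 and 56.1 points for KO, and weeks 1, 2 and 3 gave 46.2, -2.72 and 12.3 points for WT, the second of them reversed. Of 144 recomputed counts of kept promoters per list, 104 stayed within 1.5 times the reported count.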

Other observations

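The imprinted region of distal chromosome 7 held adjacent calls of either class. Kcnq1, the potassium channel gene in whose intron the imprinted cluster has its control element, kept H3K27me3 in a domain of 434 kb at a mean bin count of 14.2 in WT (98.8th percentile) and of 467 kb at 7.11 in KO (97.5th percentile). Tssc4, within the same KO domain, had H3K4me3 alone in WT and both marks in KO. The neighbouring KO domain, of 995 kb at 2.61 and at lower coordinates, held 27 protein-coding starts, among them the imprinted genes Igf2, Ins2 and Ascl2 and 4 keratin-associated genes of the Krtap5 cluster.

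Other KO-only promoters of high ranking were those of Dusp3, a dual-specificity phosphatase, and 1700006E09Rik, in a call of 7.5 kb at 9.14 on chromosome 11, and those of Phf12, a subunit of a histone deacetylase complex, and Pipox, in a domain of 81 kb at 6.29. All 4 were active in WT and bivalent in KO.

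Some calls of the highest mean bin count held no protein-coding start. The highest of the KO list, 41.2 over 6 kb on chromosome 8, overlapped the highest of the WT list, 182 over 1.8 kb. The highest KO-only values, 16.7 and 12.1, belonged to calls of 1.5 kb each on the X chromosome.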
